A study of Mus musculus with 9 samples.

Results

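Keratins are the intermediate filament proteins of epithelial cells, and the set described here comprises 9 keratin genes used to tell apart the cell layers of the urothelium, the lining of the bladder: Krt5, Krt14, Krt15, Krt13, Krt7, Krt8, Krt18, Krt19 and Krt20. They are 9 of the 18193 genes that probe sets with 1 symbol name on the array. They were chosen by gene symbol in the platform annotation, which gave 15 of the 45101 probe sets, and measured values played no part in that rule. Krt8, Krt13 and Krt14 had 3 probe sets each and the other 6 genes had 1. Signals were read on 9 arrays of bladder tissue from newborn FVB/N mice carrying the SMGA/EGFP transgene, an EGFP reporter for smooth muscle gamma actin (Actg2). Laser capture on frozen sections supplied urothelium (1 array of postnatal day 1 and 2 of day 2), stroma, the connective tissue beneath it (1 of day 1 and 2 of day 2), and detrusor, the muscle coat (2 of day 1 and 1 of day 2). All 9 samples carried the transgene, sex was not recorded, and each array received RNA from 1 unpooled sample after 2 rounds of amplification. Nothing in the labels links an array to an animal, so the p-values cover the spread between captured samples, part of which may be technical, and it is unknown whether layers share animals.

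A keratin filament is built from pairs of 1 acidic (type I) and 1 basic (type II) chain. Krt5, Krt7 and Krt8 are type II, and Krt13, Krt14, Krt15, Krt18, Krt19 and Krt20 are type I. In the urothelium Krt5 and Krt14 are known from basal cells, Krt13 from basal and intermediate cells and Krt20 from the umbrella cells that face the urine, whereas Krt7, Krt8, Krt18 and Krt19 are keratins of simple epithelia that are found through much of the urothelium. Krt15 is a keratin of basal cells in stratified epithelia.

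The genes lie in the keratin clusters of chromosomes 11 and 15. In the RefSeq gene order of GRCm38.p6, used for neighbours only, Krt13, Krt15 and Krt19 followed each other on chromosome 11, and Krt8 and Krt18 were neighbours on chromosome 15. Krt20 stood between Krt12 and Krt23, Krt5 between Krt6a and Krt71, Krt7 between Krt80 and Krt87, and Krt14 between Krt9 and Krt16. RefSeq promoter windows were found for Krt5, Krt7, Krt8, Krt13, Krt14, Krt18 and Krt20. The 120 bases before the start are shown for 5 genes because they span the expression patterns described below: a basal keratin, the umbrella keratin, the neighbouring pair Krt8 and Krt18, and the dim Krt13. All are GRCm38.p6, printed 5′ to 3′ on the gene's own strand, and capitals mark TATAAA or ATAAAAGG on either strand.
Krt5 (chr15:101712906-101713025, minus strand): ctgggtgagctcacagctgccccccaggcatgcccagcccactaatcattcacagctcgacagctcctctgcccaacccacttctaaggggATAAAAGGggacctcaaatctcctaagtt
Krt20 (chr11:99438154-99438273, minus strand): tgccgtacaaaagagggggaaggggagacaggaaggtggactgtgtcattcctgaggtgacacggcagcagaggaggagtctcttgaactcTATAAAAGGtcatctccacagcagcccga
Krt13 (chr11:100121567-100121686, minus strand): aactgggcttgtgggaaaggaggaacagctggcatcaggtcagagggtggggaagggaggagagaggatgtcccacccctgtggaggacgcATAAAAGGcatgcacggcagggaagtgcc
Krt8 (chr15:102004343-102004462, minus strand): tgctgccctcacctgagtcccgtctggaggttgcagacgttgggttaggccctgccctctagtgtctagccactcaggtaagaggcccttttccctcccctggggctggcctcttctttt
Krt18 (chr15:102028096-102028215, plus strand): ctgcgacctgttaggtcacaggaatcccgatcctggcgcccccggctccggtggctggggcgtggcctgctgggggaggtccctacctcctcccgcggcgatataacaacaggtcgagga

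The windows were searched on both strands for TATAAA, for ATAAAAGG, which overlaps it and was picked after the windows had been read, for TGANTCA and for AACNGGTT. ATAAAAGG began 29 bases before the start in Krt5 and in Krt13 and 28 bases before it in Krt20, and TATAAA began 29 bases before the start in Krt20. Over all 32851 windows of this length in the RefSeq table, 0.947% held ATAAAAGG, 6.34% TATAAA, 3.41% TGANTCA and 0.782% AACNGGTT. The windows of Krt7, Krt8, Krt14 and Krt18 held none of the 4 motifs, and a second Krt13 window, of another listed start, held TGANTCA once. These matches describe letters only, and Krt13, which was dim on the arrays, held ATAAAAGG as Krt5 and Krt20 did.

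Values are deposited intensities. Differences are on the log2(intensity + 39.31) scale, which understates the change of dim genes. A probe set was tested where its signal reached the median of the array on 3 or more arrays, which left 25693 for limma, and an adjusted p under 0.05 was called. Of the 15 keratin probe sets 11 passed this filter, covering 8 of the 9 genes: all but the 3 Krt13 probe sets and 1 of Krt14. Each gene is read by its probe set of highest mean unless another is named. No gene's level is set against another gene's, because probe sets differ in how brightly they report.

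The arrays did not all match their layer labels in full. The 7 umbrella cell markers (Upk1a, Upk1b, Upk2, Upk3a, Upk3b, Snx31 and Rab27b) had summed intensities of 154771 to 242281 in urothelium, 4796 to 131302 in stroma and 2002 to 4227 in detrusor. The mean log2 level of these markers was 11.4, 9.08 and 13.2 in stroma 1, 2 and 3, so stroma 3 came close to urothelium (13.8 to 14.7). Over the 10 smooth muscle markers urothelium 3 stood at a mean log2 level of 14.2, close to the detrusor range of 15.0 to 15.3, whereas urothelium 1 and 2 stood at 10.1 and 9.35. The 9 fibroblast markers had mean log2 levels of 12.4 to 13.7 in urothelium, 14.8 to 15.4 in stroma and 14.4 to 14.6 in detrusor. By limma, the urothelium signal exceeded the detrusor signal for all 7 umbrella cell markers and for 3 of 7 tested markers of basal urothelium, against 5.46% of all tested probe sets. Between urothelium and stroma 0 of 7 umbrella cell markers were called, although all 7 had an unadjusted p under 0.05. The lowest umbrella cell marker value on any array was 15.2 units (Upk3b in detrusor 2), so none was listed at 0.

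**Figure D1:**
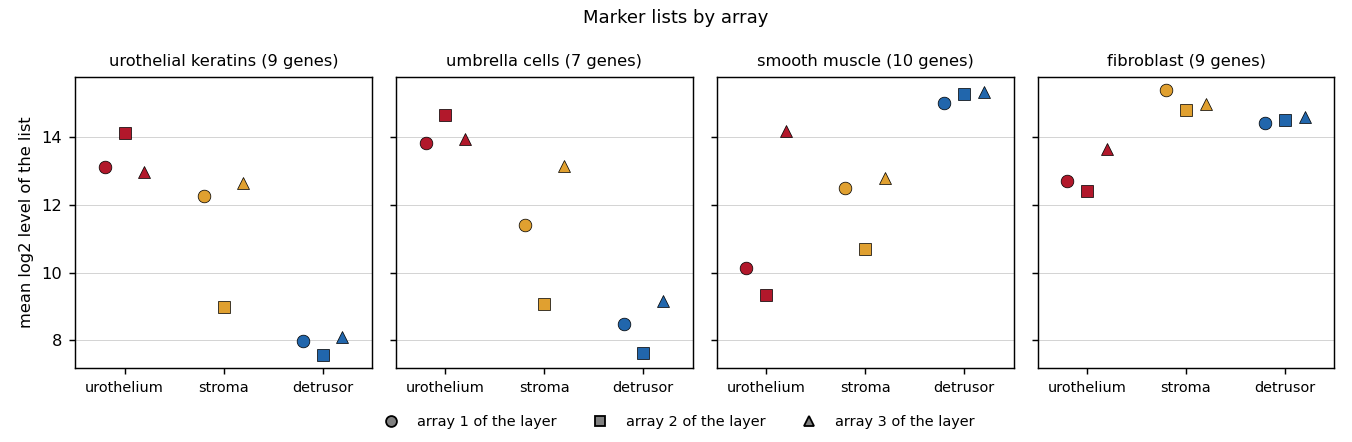
Mean log2 level (y axis) of the 9 urothelial keratins and of 3 marker lists in each array, by layer; each point is 1 array. Stroma 1 and 3 lie above stroma 2 for keratins and for umbrella cell markers, and urothelium 3 lies near detrusor for smooth muscle markers.

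Keratin transcripts were far more abundant in urothelium than in detrusor. By limma, 11 of 15 probe sets and 8 of 9 genes were called higher in urothelium, where 5.46% of all tested probe sets were. The urothelium arrays lay above every detrusor array for 12 of the 15 probe sets and 8 of the 9 genes, against 16.2% of all tested probe sets. The differences ran from log2 4.14 ± 0.77 (Krt18) to 8.65 ± 1.09 (Krt15; SE, n = 3 per layer), with the size for genes dim in detrusor set in part by the added constant. Each SE comes from 1 spread pooled over the 3 layers, so a probe set has the same SE in every comparison. For Krt5 the layer SDs were unlike: 0.71 in urothelium, 2.22 in stroma and 0.053 in detrusor. Its SE of 0.86 became 0.39 with only the 2 layers compared. Pooling can also lower the spread used in the comparisons with stroma. For Krt15 the SDs were 0.80 in urothelium, 2.90 in stroma and 0.072 in detrusor, so the pooled spread was smaller than that of stroma. Krt13 did not pass the filter. Fewer cells of a type and less RNA per cell cannot be told apart in such captured tissue.

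Among the basal keratins, Krt5 had 10067, 23189 and 9695 intensity units in urothelium 1, 2 and 3, against 293.4, 294.5 and 273.4 in the detrusor arrays. The groups were far apart, and the detrusor arrays differed by a factor of only 1.08. The difference was 40.4-fold (log2 5.34 ± 0.86, adjusted p = 0.00366 by limma). Krt14, the usual partner of Krt5, had 1648, 6578 and 1524 units in urothelium, against 24.5, 12.9 and 56.9 in detrusor, on a probe set whose suffix (_x_at) marks probes that can bind other transcripts. Urothelium 2 stood well above the other urothelium arrays for Krt14, and no urothelium array overlapped detrusor. Its difference was 37.9-fold (log2 5.24 ± 0.99, adjusted p = 0.00709), and without urothelium 2 it was log2 4.57 (adjusted p = 0.0364; range over alternatives 0.000523 to 0.0364). A second Krt14 probe set gave 13.9-fold (log2 3.80 ± 0.95, adjusted p = 0.0271), with 515.0, 2679 and 470.9 units in urothelium against 15.0, 15.6 and 56.9 in detrusor. That call was lost without urothelium 2 (log2 3.01, adjusted p = 0.117) and without detrusor 1, detrusor 2 or detrusor 3 (adjusted p = 0.0825, 0.0826 and 0.0656), and it held in 14 of 18 alternatives, with adjusted p from 0.00514 to 0.117. The third Krt14 probe set reached the array median on 0 of 9 arrays, so the probe sets of this gene disagreed in size but not in sign.

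Krt15 had 15877, 39303 and 14229 units in urothelium, against 9.65, 14.5 and 13.5 in detrusor. In detrusor this probe set lay between the 7.2th and 10.5th percentile of the array, so that the fold on the scale used (400.5-fold, adjusted p = 0.00141) depends on the added constant. With constants at the 5th percentile and at the median of all values, the Krt15 difference was log2 9.98 and 6.42, and it was called under both.

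Krt13 was dim in every layer. Its brightest probe set read 91.0, 328.7 and 12.6 units in urothelium, 183.8, 20.1 and 86.1 in stroma, and 81.5, 36.9 and 22.4 in detrusor. The layers overlapped, and urothelium 2 alone lay above its array's median. Without the filter, the urothelium minus detrusor difference was log2 0.71 ± 0.71 (adjusted p = 0.753). The 2 other Krt13 probe sets stayed between 7.88 and 93.5 units on all arrays. The table carries no detection calls, so Krt13 cannot be called absent. Its chromosomal neighbour Krt15, and Krt19 beyond it, had large differences between urothelium and detrusor on the same arrays. Krt36, on its other side, was not called for urothelium minus detrusor (log2 0.42 ± 0.57, adjusted p = 0.733 by limma).

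**Figure D2:**
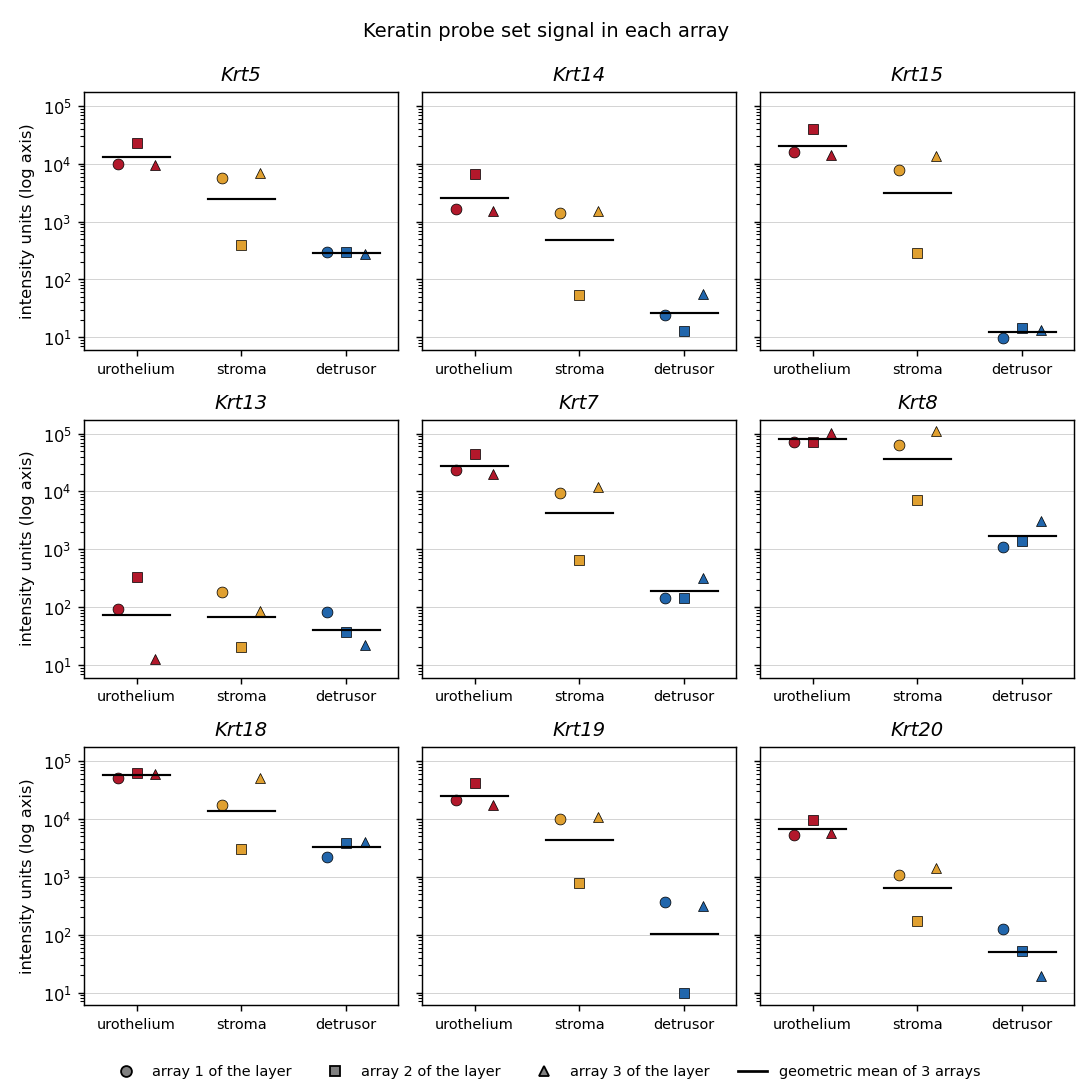
Intensity (log axis) of the 9 keratins in the 9 arrays, by layer, with the geometric mean of 3 arrays as a bar. Urothelium lies above detrusor for every gene but Krt13, stroma 2 lies far below stroma 1 and 3, and Krt8 in stroma 3 reaches the urothelium level.

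The keratins of simple epithelia were also higher in urothelium than in detrusor. Krt7 had 23079, 44067 and 19778 units in urothelium, against 143.8, 146.2 and 324.1 in detrusor. The layers were well separated, with a 118-fold difference (log2 6.88 ± 0.89, adjusted p = 0.00152). Krt19, the smallest keratin, which lacks a tail domain, had 21509, 41860 and 17195 units in urothelium, against 368.2, 9.69 and 314.1 in detrusor. Here detrusor 2 was far below the other detrusor arrays. The difference was 130-fold (log2 7.02 ± 1.01, adjusted p = 0.00241), and without detrusor 2 it was log2 6.04 (adjusted p = 0.0106; range over alternatives 0.000149 to 0.0154).

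Krt8, which pairs with Krt18, had 72629, 72403 and 100495 units in urothelium, against 1077, 1371 and 3128 in detrusor, and was above the 99th percentile of every urothelium array. The 3 Krt8 probe sets gave 47.3-fold (log2 5.57 ± 0.81, adjusted p = 0.00249), 84.0-fold and 45.2-fold. Krt18 had 50883, 62731 and 59424 units in urothelium, against 2161, 3917 and 3934 in detrusor. Its 17.6-fold difference (log2 4.14 ± 0.77, adjusted p = 0.00661) came with a signal that in detrusor still stood between the 81.2th and 88.1th percentile of the arrays. The within-array log2 ratio of Krt8 to Krt18 was 0.51, 0.21 and 0.76 in urothelium, 1.84, 1.23 and 1.10 in stroma, and -0.98, -1.49 and -0.33 in detrusor. The 3 layers did not overlap in this ratio, which was highest in stroma and lowest in detrusor. It carries no test.

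Krt20, the umbrella cell keratin, had 5389, 9794 and 5805 units in urothelium, against 124.7, 52.5 and 19.4 in detrusor. The groups did not overlap, and the difference was 70.7-fold (log2 6.14 ± 0.70, adjusted p = 0.000966). In detrusor Krt20 was below the median of all 3 arrays. With the added constant at the median and at the 5th percentile of all values, the urothelium minus detrusor difference was log2 4.56 and 6.80 for Krt20, 3.42 and 6.17 for Krt14, 4.69 and 5.48 for Krt5, 6.0 and 7.10 for Krt7, and 5.87 and 7.59 for Krt19. For Krt8 and Krt18 it moved by less than 1.5 times. The calls of all 8 genes held under each of the 19 alternatives, among them leaving out stroma 3 and urothelium 3.

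**Figure D3:**
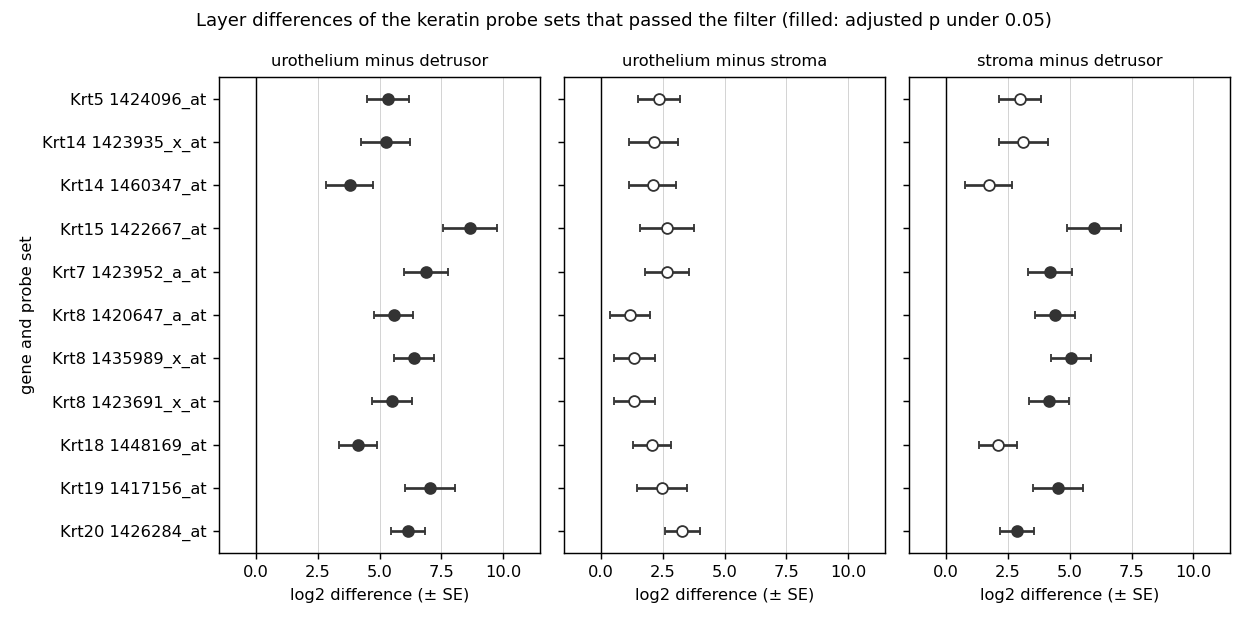
Log2 differences with their SE between layers for the 11 keratin probe sets that passed the filter (n = 3 arrays per layer); filled points have an adjusted p under 0.05. All 11 are filled for urothelium minus detrusor, 0 for urothelium minus stroma and 7 for stroma minus detrusor. A probe set has the same SE in every comparison, from the spread pooled over the layers.

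Against stroma, all 9 keratin genes had a higher mean log2 level in urothelium, but 0 were called by limma. For Krt13, which did not pass the filter, the difference was only log2 0.19 ± 0.71. An unadjusted p under 0.05 was found for 6 of 9 genes, against 15.4% of all tested probe sets. In this comparison 0.0156% of all tested probe sets were called higher and 0.0934% in either direction. With all 9 arrays the largest difference was that of Krt20 (9.76-fold, log2 3.29 ± 0.70, adjusted p = 0.0783), and the smallest among the 8 tested genes was that of Krt8 (2.22-fold, log2 1.15 ± 0.81, adjusted p = 0.529). The other 6 tested genes lay between log2 2.05 (Krt18) and 2.67 (Krt7). Without stroma 2 the differences were log2 2.42 for Krt20, 1.36 for Krt7, 1.26 for Krt19, 1.07 for Krt5, 1.01 for Krt15, 0.95 for Krt18, 0.80 for Krt14 and -0.030 for Krt8. Without stroma 3 these 8 genes lay between log2 1.95 (Krt8) and 3.82 (Krt20), and without urothelium 2 Krt14 was at log2 1.45. For 6 of the 9 genes no stroma array reached any urothelium array, against 7.85% of all tested probe sets that were higher without overlap. Krt8, Krt18 and Krt13 did overlap. For Krt14 the gap was narrow, with 1502 units in stroma 3 against 1524 in urothelium 3. Its second probe set overlapped, with 739.8 units in stroma 3 against 470.9 in urothelium 3.

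Calls here changed when single arrays were left out. The 24 called probe sets of the whole table became 0 without urothelium 1, urothelium 2, stroma 1, detrusor 1, detrusor 2 or detrusor 3, and 59 without urothelium 3. The detrusor arrays enter this comparison only through the pooled spread. Leaving one of them out kept the differences as they were (median over all tested probe sets log2 -0.15), so those losses reflect the estimate of the spread. Without stroma 3, Krt20 (log2 3.82, adjusted p = 0.0292) and Krt18 (log2 2.99, adjusted p = 0.0373) were called, and the number of called probe sets in the whole table was 554 instead of 24. With the added constant at the median of all values Krt20 was called as well (log2 2.88, adjusted p = 0.0466). Over all alternatives the adjusted p ran from 0.0292 to 0.282 for Krt20 and from 0.0373 to 0.525 for Krt18. Without stroma 3 and urothelium 3 together, 0 keratin genes were called.

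The spread within stroma was large and ran the same way for 8 genes. Krt5 had 5618, 399.2 and 6916 units in stroma 1, 2 and 3, and Krt15 had 7863, 288.9 and 13436. Krt18 had 17369, 2970 and 50934 units, and Krt20 had 1061, 169.4 and 1420. Stroma 2 was the lowest of the 3 for all of these, between 8.38-fold (Krt20) and 46.5-fold (Krt15) below the highest.

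Set against each gene's own mean in urothelium, the stroma arrays held unequal shares of the 8 keratins other than Krt13. Stroma 1 held between 15.2% (Krt20) and 76.1% (Krt8), with a median of 35.6%. Stroma 2 held between 1.25% (Krt15) and 8.60% (Krt8), with a median of 2.60%. Stroma 3 held between 20.3% (Krt20) and 134% (Krt8), with a median of 47.3%. Krt20 was thus the gene of the lowest share in stroma 1 and stroma 3, and Krt8 that of the highest share in all 3 stroma arrays. Among the 7 umbrella cell markers in stroma 3, Upk1b had the highest share of its urothelium mean (106%) and Upk3b the lowest (15.5%). In stroma 1 these shares were 9.62% and 7.66%, and that of Upk1a was lower still. The other markers of stroma 1 stood at 24.4% (Upk3a), 22.9% (Rab27b), 22.3% (Upk2) and 14.3% (Snx31). Krt20, at 15.2% in stroma 1, thus lay within the range of these markers.

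**Figure D4:**
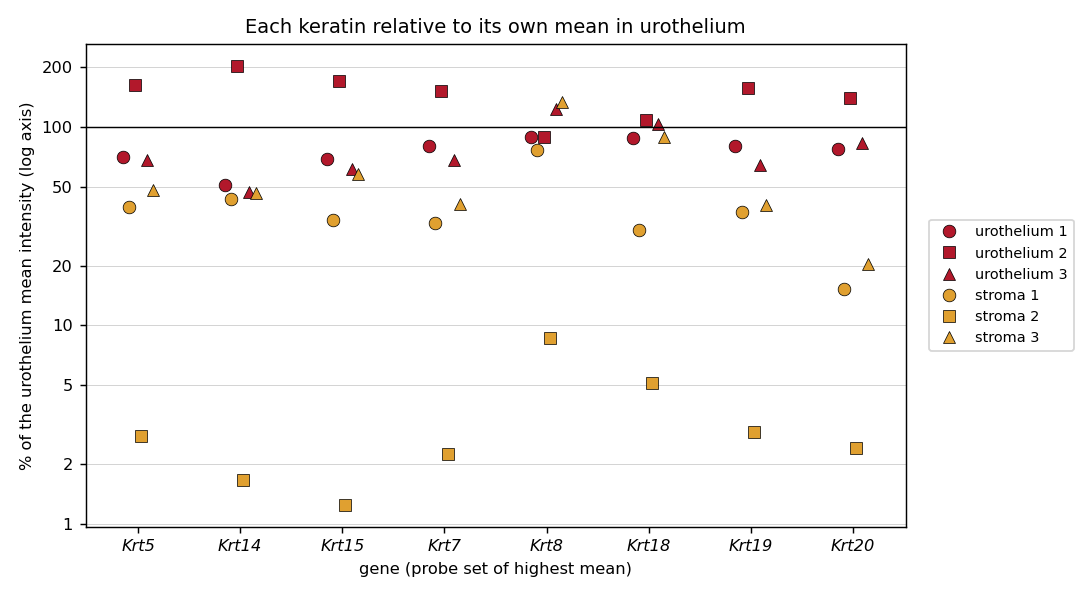
Intensity of 8 keratins in each urothelium and stroma array as a percentage of the gene's own urothelium mean (log axis). Stroma 2 lies between 1.25% and 8.60%, and in stroma 1 and 3 Krt20 has the lowest share and Krt8 the highest.

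The ratio of basal to umbrella cell keratin also differed between arrays. The log2 ratio of Krt5 to Krt20 was 0.90, 1.24 and 0.74 in urothelium and 2.36, 1.07 and 2.25 in stroma. In detrusor Krt15 and Krt20 were so dim that the added constant sets such ratios, and none is given. Stroma 1 and 3 lay above all 3 urothelium arrays, and stroma 2 lay among them. For Krt15 over Krt20 the log2 ratios were 1.55, 2.0 and 1.29 in urothelium and 2.84, 0.65 and 3.21 in stroma. Again stroma 1 and 3 were above urothelium, whereas stroma 2 was below it. The part that urothelial transcripts in stroma 1 and stroma 3 have in these values was not tested.

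Between stroma and detrusor, 5 of 9 genes and 7 of 15 probe sets were called higher in stroma, where 1.51% of all tested probe sets were. They were Krt15 (log2 5.98 ± 1.09, adjusted p = 0.0191), Krt19 (4.54 ± 1.01, adjusted p = 0.0361), Krt8 (4.41 ± 0.81, adjusted p = 0.0192), Krt7 (4.21 ± 0.89, adjusted p = 0.0304) and Krt20 (2.86 ± 0.70, adjusted p = 0.0499). Krt14 (3.11 ± 0.99, adjusted p = 0.113), Krt5 (2.99 ± 0.86, adjusted p = 0.087) and Krt18 (2.09 ± 0.77, adjusted p = 0.166) did not pass, all by limma. For 6 genes the stroma arrays did not overlap detrusor, against 14.1% of all tested probe sets higher without overlap. Even stroma 2, the array poorest in keratin, had 288.9 units of Krt15 and 7038 of Krt8, above all detrusor arrays. For Krt18 it had 2970 units, within the detrusor range.

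These calls changed when arrays were left out, and fewer keratin genes were called with only the 2 layers compared. The printed SEs pool the wide stroma spread with the narrower spread of the other layers. Urothelium arrays enter this comparison only through that pooled spread. Without stroma 3 and urothelium 3, 0 of the 5 genes were called, and adjusted p was 0.0545 for Krt15 (log2 4.96) and 0.0528 for Krt8 (log2 3.62), although 1 other Krt8 probe set passed. Leaving out detrusor 1, detrusor 2 or detrusor 3 also left 0 genes, leaving out stroma 1 or stroma 3 left Krt15 and Krt8, leaving out urothelium 1 left Krt15, Krt7 and Krt8, and without stroma 2 all 8 tested genes were called, at log2 3.19 (Krt18) to 7.64 (Krt15). Without stroma 3 the 8 differences ran from log2 1.15 (Krt18) to 4.96 (Krt15), and without detrusor 2 that of Krt19 was log2 3.56. With the constant at the median Krt15 was at log2 3.98 and Krt20 at 1.69. Krt20 was called in only 5 of the 19 alternatives (adjusted p = 0.00608 to 0.195), and quantile normalization (0.0511), median centring (0.0655) and dropping the filter (0.07) each ended its call. Krt19 was called in 10 of 19, Krt7 in 12, and Krt8 and Krt15 in 15 each. The directions were the same in each case.

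Within urothelium, array 2, the only one of postnatal day 1, was the highest for 8 of the 9 genes. Its intensity relative to the mean of the 2 day 2 arrays was 4.15 for Krt14, 2.61 for Krt15, 2.35 for Krt5, 2.16 for Krt19, 2.06 for Krt7 and 1.75 for Krt20. For Krt18 this ratio was 1.14 and for Krt8 it was 0.836. With 1 array of that day no spread can be given, and day cannot be told apart from this sample. Urothelium 2 also had the lowest smooth muscle marker level of the 3. Its array median was the lowest of all 9 arrays (133.3 units, against 258.6 and 235.7 for urothelium 1 and 3). What part this has in the ratios was not tested. Within day 1 (1 urothelium and 2 detrusor arrays) the urothelium minus detrusor difference was log2 6.12 for Krt5, 9.58 for Krt15, 5.85 for Krt8 and 6.32 for Krt20. Within day 2 (2 urothelium arrays and 1 detrusor array) it was 4.99, 8.16, 4.75 and 6.58. For Krt14, Krt19, Krt7 and Krt18 it was 6.84, 8.21, 7.90 and 4.41 within day 1, and 4.08, 5.77, 5.88 and 3.79 within day 2. Of these genes only Krt20 had the larger difference on day 2. Within day 1 the urothelium minus stroma difference was log2 3.16 for Krt20 and 0.22 for Krt8, and within day 2 it was 3.35 and 1.62. The interaction of layer and day in limma called 0 keratin probe sets in each of the 3 comparisons, also 0 at an unadjusted p under 0.05, and 0 of 25693 probe sets in all, where 1268, 1715 and 1495 had an unadjusted p under 0.05 for urothelium minus detrusor, urothelium minus stroma and stroma minus detrusor. Each combination of layer and day had only 1 or 2 arrays, so this test was weak and cannot show equal differences on both days. For the second Krt14 probe set a urothelium minus detrusor term of log2 -3.17 had an unadjusted p of 0.154.

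The profiles over the 9 arrays were compared after centring each on its mean, by the root mean square difference in log2 units. Among 13056 other genes, those nearest to Krt5 were Prss22 (0.27), Degs2 (0.37), Marveld3 (0.37), Ociad2 (0.41) and Fxyd3 (0.43), and those nearest to Krt20 were Nipal1 (0.47), Prss8 (0.48), Mycl (0.49), Macc1 (0.54) and Cldn7 (0.54). The median over all genes was 2.51 for Krt5 and 2.71 for Krt20. Marveld3 and Cldn7 encode tight junction proteins and Prss8 a serine protease of epithelial membranes. Such distances describe these 9 arrays and carry no test, and for Krt20, dim in detrusor, they depend on the added constant.

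Of 39 other keratin genes on the array, 18 passed the filter, and 2 of those were called for urothelium minus detrusor, both higher in urothelium, against 5.46% of all tested probe sets. The median difference of the 18 was log2 0.84, against -0.02 over all tested probe sets. Krt4, known as the partner of Krt13 in the lining of internal stratified epithelia, had 3460, 5092 and 3690 units in urothelium, 1946, 176.5 and 4013 in stroma, and 75.3, 218.7 and 94.7 in detrusor. Its urothelium minus detrusor difference was 4.68 ± 0.87 on the log2 scale (adjusted p = 0.00662 by limma). Stroma 3 matched urothelium for Krt4, and stroma 2 matched detrusor. Krt12 was called too (2.26 ± 0.63, adjusted p = 0.0415), with 289.7 to 500.2 units in urothelium, 15.8 to 136.8 in stroma and 21.6 to 56.8 in detrusor. It reached the array median on the 3 urothelium arrays alone and so passed the filter only through the layer where it was high, and its call is no support for the count. Of the 18, 0 were called by limma between urothelium and stroma, where 4 had an unadjusted p under 0.05, or between stroma and detrusor, where 5 did. Over all tested probe sets 15.4% and 19.5% had one.

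A list of 14 genes of desmosomes and plakins, which anchor keratin filaments, had 12 tested members. Of these 6 were called for urothelium minus detrusor, all higher in urothelium, where 5.46% of all tested probe sets were, led by the plakin Dsp (log2 6.76 ± 0.78, adjusted p = 0.000972) and the plakophilins Pkp1 (5.62 ± 0.71, adjusted p = 0.00144) and Pkp3 (4.86 ± 0.64, adjusted p = 0.00167). Between stroma and detrusor 2 were higher in stroma and 1, Pkp2 (-2.88 ± 0.67, adjusted p = 0.0408), was lower, against 1.51% and 2.05% of all tested probe sets. Of 12 intermediate filament genes of other classes, 10 were tested, and against detrusor 1 was higher in urothelium and 4 were lower, where 5.46% and 5.54% of all tested probe sets were. Vim, the vimentin of mesenchymal cells, fell in urothelium against detrusor (log2 -2.0 ± 0.34, adjusted p = 0.00455) and against stroma (-2.46 ± 0.34, adjusted p = 0.0352), where 0.0778% of all tested probe sets were called lower. Des, the desmin of muscle, had 70.7, 222.4 and 4109 units in urothelium and 15916, 11279 and 23502 in detrusor (log2 -5.04 ± 1.08, adjusted p = 0.013). For Nefm, a neurofilament chain, the signal was also lower in urothelium than in detrusor (log2 -2.54 ± 0.58, adjusted p = 0.0177).

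The mean log2 level of each of the 8 tested genes ran from urothelium, the highest, through stroma to detrusor. The stroma mean averages unlike arrays, so this order of means is not an order of single arrays. Krt8 in stroma 3 (109433 units) lay above every urothelium array, and Krt18 in stroma 2 (2970 units) lay within the detrusor range. Stroma 3 also came close to urothelium in umbrella cell markers. The brightest Krt13 probe set had the same order, but its layers overlapped. On 1 other Krt13 probe set detrusor was highest (5.91, against 5.85 in urothelium and 5.64 in stroma). Among the 8 tested genes, the difference between urothelium and stroma did not pass for any with all 9 arrays. The difference between stroma and detrusor passed for Krt7, Krt8, Krt15, Krt19 and Krt20 with all 9 arrays. Read by the brightest probe set of each gene, these calls were lost without stroma 3 and urothelium 3.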

How the data were processed

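Each deposited value is a linear intensity of 1 probe set. The submitters' processing notes name GCOS, Affymetrix's operating software, as the tool; which version, algorithm and scaling target the authors used is not given in the sources used here. After trimming 2% off each end the arrays had means of 1499.8 to 1500.01, so they had been scaled before deposit, and this was kept. No detection calls were used. Array medians ran from 133.3 to 388.5. All 9 columns were used. The number of arrays limits the precision, and the median SE of a layer difference was 0.50 log2 units.

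Of 45101 probe sets 64 controls were left out, 34945 had 1 symbol, 932 several (among them 1 shared by Krt17 and Krt14, not used) and 9160 none. A lookup in the RefSeq gene table left all symbols as they were. The constant 39.31, the 20th percentile of all values, was added before the log2 transform. Testing used limma 3.58.1 under R 4.3.3 (lmFit, eBayes with trend, layer as the only term, all 9 arrays, Benjamini-Hochberg over 25693 probe sets in each comparison). The fit and the interaction of layer and day were tested on simulated data in which all layers had the same spread. The simulated interaction was larger than any seen for the keratins, so recovery of terms of their size was not tested.

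Named were all probe sets of the 9 keratins, other keratins called in any comparison, the 3 members with the smallest adjusted p for anchor and filament genes, and the 5 nearest profiles to Krt5 and Krt20. Pkp2, Krt36 and the marker genes Upk1a, Upk1b, Upk2, Upk3a, Upk3b, Snx31 and Rab27b were named with single values after their values were seen. Krt6a and Krt80, called in no comparison, lay outside these rules and were also named with their values known. The members, lists, tests and alternatives were chosen with earlier results of these data known.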

Additional observations from a re-analysis of the deposited data

How the results depend on the processing

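Over 19 alternatives, the urothelium minus detrusor calls of all 8 genes held. Leaving out 1 array gave 1315 to 3235 called probe sets in the whole table for urothelium minus detrusor, 0 to 554 for urothelium minus stroma and 73 to 928 for stroma minus detrusor. For keratin probe sets these ranges were 10 to 11, 0 to 2 and 0 to 10, and for keratin genes 8 to 8, 0 to 2 and 0 to 8. Array weights gave 5482 called probe sets for urothelium minus detrusor against 2827. For urothelium minus stroma the count was 37 with quantile normalization, 0 with median centring (3937 at an unadjusted p under 0.05), 58 with the constant at the median, 0 with only the 2 layers compared (3236 at an unadjusted p under 0.05) and 384 without stroma 3 and urothelium 3, against 24; the constant at the median called 1 keratin gene and 1 keratin probe set. For stroma minus detrusor, leaving out stroma 3 and urothelium 3 gave 592 probe sets against 915, with 0 keratin genes and 1 keratin probe set, and comparing only the 2 layers gave 2 keratin genes and 4 keratin probe sets. Leaving out 1 array gave urothelium minus stroma differences of -0.030 to 1.95 for Krt8, and the lowest, without stroma 2 (adjusted p = 0.98, over all alternatives 0.233 to 0.98), turned the sign. Median centring moved the median difference of all probe sets from 0.17 to -0.25 for stroma minus detrusor, with 181 higher and 873 lower against 388 and 527, and from -0.15 to 0.27 for urothelium minus stroma; no keratin difference changed sign under either scaling. The causes were not tested, beyond the fewer arrays in the settings that leave some out. No paired analysis was possible because the labels give no replicate numbers that layers share.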

Other observations

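Krt6a, a keratin of activated and stratified epithelia, was picked out after its values were seen. Its brightest probe set had 222.0, 3429 and 178.2 units in urothelium 1, 2 and 3, 1476, 70.9 and 424.5 in stroma, and 566.7, 136.1 and 153.2 in detrusor. Urothelium 2 and stroma 1, both of postnatal day 1, were its highest arrays. Of the detrusor arrays of day 1, detrusor 1 was the highest of its layer and detrusor 2 the lowest. With only 1 day 1 array in urothelium and in stroma, day cannot be told apart from the sample. Its urothelium minus detrusor difference was not called (log2 1.09 ± 1.14, adjusted p = 0.641 by limma). Krt80, a neighbour of Krt7, had 918.9, 829.3 and 1106 units in urothelium, 214.5, 24.8 and 367.4 in stroma, and 242.7, 88.1 and 186.7 in detrusor. Its urothelium minus detrusor difference fell just short of the threshold (log2 2.29 ± 0.67, adjusted p = 0.0504 by limma). Unlike Krt7, it was not higher in stroma than in detrusor (log2 -0.098 ± 0.67, adjusted p = 0.953 by limma).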
